A study of Mus musculus with 2 samples.

Results

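T and natural killer (NK) cells made up 82 of 9571 kept cells, out of 18633 barcodes in all, in single-cell RNA libraries of mouse liver cells enriched for macrophages. The study prepared non-parenchymal liver cells of a Spta sph/sph mouse and of a Spta wt/wt mouse, both male, untreated and 8 to 10 weeks old, with 1 sample per genotype. Spta encodes the alpha chain of spectrin, a protein of the red cell membrane skeleton, and the sph allele makes red cells fragile. Cells carrying F4/80, a macrophage surface protein, were collected with antibody-coated magnetic beads and loaded for a target of 10000 cells per library. T and NK cells are not cells that F4/80 defines, so the members came through beside the cells the beads select, and their number is not a census of lymphocytes in the liver. The deposited matrix numbers its libraries 2 and 1, and no label used here ties a number to a genotype. Every comparison between libraries below is therefore one of library 2 over library 1, not of genotypes, and genotype, animal and preparation cannot be told apart in it.

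Members were chosen by their own RNA counts. A cell was a member when the summed unique molecular identifiers (UMIs, each a captured RNA molecule) of Cd3e, Cd3d, Cd3g, Trbc2, Ncr1, Nkg7 and Gzma reached 3 and 0.1% of its UMIs. It could hold at most 1 UMI of Cd79a and Cd79b together, at most 1 of Siglech and Flt3 together, and less than 1% of UMIs from the macrophage genes Clec4f, Cd5l and C1qa. Kept cells had at least 200 genes, at most 20% mitochondrial UMIs, and no barcode sequence that recurred in the other library with over 5 times their UMIs. The libraries shared 955 barcode sequences, and 0 members carried one of them. Library 2 held 55 members among 6898 kept cells, a share of 0.797% (exact 95% binomial interval 0.601 to 1.04%). Library 1 held 27 members among 2673 kept cells, a share of 1.01% (0.667 to 1.47%). The intervals overlap, and like all intervals below they cover counting error only. The members of library 2 held 168445 UMIs, with a lowest of 856, a median of 2535 and a highest of 9971 per cell. Those of library 1 held 115121 UMIs, with a lowest of 1995, a median of 3502 and a highest of 13127. Library 1 was thus the deeper per member, although its kept cells as a whole had a median of 4077 UMIs, against 4640 in library 2.

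T cells recognise antigen with a receptor whose variable chains, alpha and beta or gamma and delta, reach the surface only with the CD3 chains, and the kinases Lck and Zap70 carry the signal inside. NK cells lack that receptor and read target cells with receptors such as NKp46 (Ncr1), NKG2D (Klrk1) and the CD94 and NKG2 pair (Klrd1, Klrc1). Both kill through granules that hold perforin and granzymes. The liver is known for many innate-like lymphocytes, among them NK cells, resident innate lymphoid cells and NKT cells, many of which carry the chemokine receptor Cxcr6 that holds them in the sinusoids.

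The label was checked against lymphocyte genes that are no part of the rule. Trac was found in 27 of 55 members of library 2 and in 21 of 27 of library 1. Il2rb was found in 37 members of library 2 and 24 of library 1, and the T cell adaptor gene Skap1 in 27 of library 2 and 19 of library 1. A constant gene of the alpha or beta receptor chain (Trac, Trbc1 or the rule's own Trbc2) was found in 46 members of library 2 and 25 of library 1. Cd79a and Ms4a1 of B cells and Siglech of plasmacytoid dendritic cells had 0 UMIs in all 82, as did Flt3, Xcr1, Zbtb46, the basophil and mast cell genes Mcpt8, Cpa3, Fcer1a and Ms4a2, and the platelet genes Ppbp and Itga2b. Cd79a, Siglech and Flt3 are limited by the rule itself. Not every marker of other cells was absent. Of 8 B and plasma markers, 3 had UMIs, with 36 in library 2 and 17 in library 1. Of 10 dendritic markers, 6 had UMIs, with 44 in library 2 and 173 in library 1. Of 4 platelet markers, 1 had 3 UMIs in library 2 and 0 in library 1.

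In 3 members of library 2 the data went against the label. They held 197, 204 and 496 UMIs of Mpo, Elane, Prtn3 and Ctsg together, the granule proteases of early neutrophils, and 0 UMIs of the CD3 genes, of Cxcr6 and of Ccl5. S100a8 and S100a9, which encode neutrophil calcium-binding proteins, gave these cells 441 and 519 UMIs in all. They met the rule through Nkg7 alone, with 12, 12 and 16 UMIs, and gave 15.2% of the UMIs of the members of library 2. Among kept cells of library 2, 29 held at least 3 UMIs of the protease genes, and 12 of these had an Nkg7 UMI. The 3 are called granule gene cells below, and results that rest on them are given with and without them. Leaving them out raises the log2 ratio between libraries by 0.24 for any gene they lack.

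A second cell stood apart in library 1. The deepest member, with 13127 UMIs, held 15 UMIs of Clec4g, 7 of Stab2, 12 of Aqp1 and 16 of Cavin2, genes of liver sinusoidal endothelial cells, beside 4 UMIs of the CD3 genes and 4 of Cd4. No other member had more than 2 UMIs of Stab2 and Clec4g together. This cell gave 11.4% of the UMIs of the members of library 1. Doublets were not called, so a droplet with more than 1 cell may remain among the members.

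**Figure D1:**
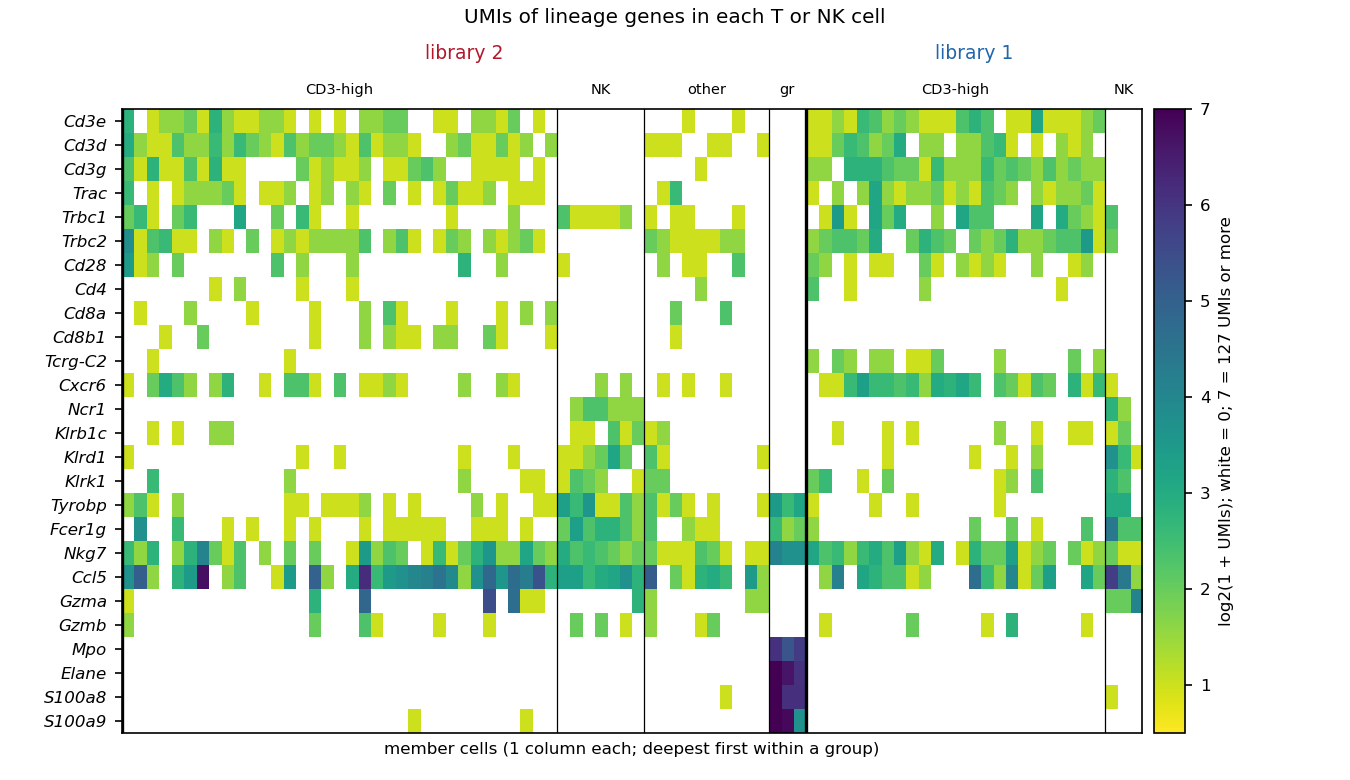
UMIs of 26 lineage genes (rows) in each of the 82 members (columns), on a log2(1 + UMIs) colour scale, with library 2 on the left and library 1 on the right, and the deepest cells first within each group (CD3-high, CD3-negative NK marked NK, other, granule gene cells marked gr). Cd8a and Cd8b1 have UMIs in library 2 only, Tcrg-C2 mostly in library 1, and Mpo and Elane in the 3 granule gene cells alone.

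Just inside the rule, 4 members of library 2 and 0 of library 1 had a marker sum of exactly 3 UMIs. Just outside it, 1 cell of library 2 and 0 of library 1 had a sum of exactly 2 and met every other condition. The percent limit alone kept out 11 cells of library 2, of which 3 held granule genes, and 1 cell of library 1. The macrophage limit alone kept out 2 cells of library 2 and 0 of library 1, and the mitochondrial limit alone 6 barcodes of library 2 and 7 of library 1. The marker sum had a median of 7 in members of library 2 and 14 in those of library 1.

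Over all other kept cells, the genes with the highest folds in both libraries were led by Cd160, a receptor of cytotoxic lymphocytes, with 28 UMIs in members of library 2 (166 CPM, the gene's UMIs scaled to an equal total per library) and 18 in those of library 1 (156 CPM). The other kept cells had 0.0439 CPM in library 2 and 0.0748 CPM in library 1. Klrb1c, which encodes the NK1.1 antigen, had 113 CPM in members of library 2 and 104 CPM in those of library 1, against 0.0219 CPM in the rest of library 2 and 0.0748 CPM in the rest of library 1. Ctsw, a protease of cytotoxic cells, had 178 CPM in members of library 2 and 252 CPM in those of library 1. Il2rb, the beta chain of the interleukin 2 and 15 receptors, had 534 CPM in library 2 and 634 CPM in library 1. The other genes among the 15 leading ones were Trac, Cxcr6, the chemokine gene Xcl1, Podnl1, the T cell transcription factor Bcl11b and the adaptor Skap1, together with the rule's own Cd3d, Cd3e, Cd3g, Trbc2 and Gzma. Of 1857 genes compared with the rest, 19.3% were at least 2-fold higher and 3.72% at least 2-fold lower in both libraries. Since the rule chose the cells by their RNA, these values describe the members and test nothing.

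Ribosomal protein genes took 22.4% of the members' UMIs in library 2 and 19.0% in library 1. In Kupffer marker cells, the resident liver macrophages of these libraries, they took 9.31% in library 2 and 8.69% in library 1, and in B-lineage cells 19.8% in library 2 and 17.4% in library 1. Between the libraries, 81 of 81 ribosomal protein genes were within 2-fold in members.

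The members were split by their CD3 UMIs, with names taken from the markers used. CD3-high cells, with at least 2 UMIs of Cd3e, Cd3d and Cd3g, numbered 35 of 55 in library 2 and 24 of 27 in library 1. CD3-negative NK cells, with 0 UMIs of these genes and at least 1 of Ncr1, Klrb1c, Klre1 or Eomes, numbered 7 in library 2 and 3 in library 1. The remaining 13 members of library 2, which include the 3 granule gene cells, had at most 1 CD3 UMI, and library 1 had 0 such cells. The 10 of these without granule genes had a constant gene of the alpha or beta chain in 8 and Ccl5 in 8.

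Thinning each cell to 1000 UMIs left 34.0% of members of library 2 and 40.7% of those of library 1 as CD3-high, so the number of cells on each side of the split moves with depth. The shares of CD3-high cells in the libraries are not read as a difference for that reason.

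Between the libraries, 3170 genes had at least 10 UMIs in the members of either one. Of these, 12.0% were at least 2-fold higher and 11.6% at least 2-fold lower in library 2, and 6.25% and 7.03% were so with an interval of the ratio that excluded equality. Without the granule gene cells, 2925 genes were compared, and the shares were 11.7% and 11.8%, or 5.61% and 6.43% with such an interval. Without these and the cell with endothelial genes, 2778 genes were compared, and the shares were 12.5% and 9.94%, or 6.48% and 5.44%. The median log2 ratio of all genes compared was −0.03 with them and −0.00 without. These shares are the background for each list below. With 1 library of each number, no test between them is possible, and cells of a library are not replicates.

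The antigen receptor chains came first. Trac, the constant gene of the alpha chain on chromosome 14 (54220521 to 54224206, GRCm38, plus strand), had 48 UMIs in 27 of 55 members of library 2 and 47 UMIs in 21 of 27 of library 1. The log2 ratio was −0.52 (−1.13 to 0.09), and the interval spans equality. Trbc1 and Trbc2, near-identical constant genes of the beta chain on chromosome 6, are read together because their counts one by one are uncertain. They had 134 UMIs in library 2 and 155 in library 1, with a log2 ratio of −0.76 (−1.10 to −0.42).

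Of 9 receptor and CD3 genes with enough UMIs, 0 were at least 2-fold higher and 4 at least 2-fold lower in library 2, and 2 were lower without the granule gene cells. The list's median log2 ratio was −0.58, and −0.34 without those cells. The rule genes Cd3e, Cd3d and Cd3g, which lie side by side on chromosome 9 between 44969572 and 45009627, had 55, 83 and 53 UMIs in library 2 and 56, 50 and 74 in library 1. Their log2 ratios without the granule gene cells were −0.34, 0.42 and −0.79.

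The constant genes of the gamma chain stood apart. Tcrg-C1, Tcrg-C2 and Tcrg-C4 on chromosome 13 had 9 UMIs together in library 2 and 38 in library 1, a log2 ratio of −2.63 (−3.86 to −1.55). At least 1 of them was found in 6 of 55 members of library 2 (10.9%, interval 4.11 to 22.2%) and in 18 of 27 of library 1 (66.7%, 46.0 to 83.5%). Tcrg-C2 had 2 UMIs in 2 cells of library 2 and 23 UMIs in 11 cells of library 1, with no cell above 3, a log2 ratio of −4.07 (−7.20 to −2.06). Tcrg-C4 had 4 UMIs in library 2 and 10 in library 1, and Tcrg-C1 had 3 UMIs in library 2 and 5 in library 1.

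The gamma chain transcripts lay in cells that also held alpha or beta chain RNA, as most members did. Trac was present in 3 of the 6 gamma-positive members of library 2 and in 16 of the 18 of library 1. A constant gene of the alpha or beta chain, counting the rule's own Trbc2, was present in 6 of 6 of library 2 and 18 of 18 of library 1. Over all members, Trac was in 27 of 55 of library 2 and 21 of 27 of library 1. An alpha or beta constant gene was in 46 of 55 members of library 2 and 25 of 27 of library 1. The overlap is therefore not read as a trait of the gamma-positive cells. Trdc, the constant gene of the delta chain, had 0 UMIs in all 82 members. The 3 gamma genes belong to the same family, so their counts one by one are treated as uncertain, and they are also given as a sum. After thinning to 1000 UMIs, Tcrg-C2 was found in 0 of 50 members of library 2 without granule genes (0 to 7.11%). In library 1 it was found in 5 of 27 (18.5%, 6.30 to 38.1%), and these intervals overlap. Any of the 3 gamma genes was then found in 29.6% of members of library 1, against 66.7% before thinning. Of Kupffer marker cells, 1 of 3767 in library 2 and 0 of 1662 in library 1 had a Tcrg-C2 UMI before thinning, where the median depth was 6352 UMIs for library 2 and 5080 for library 1, against 2471 in the 52 members of library 2 without granule genes and 3502 in those of library 1.

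The coreceptors also gave a contrast between the libraries. Cd8a and Cd8b1, neighbours on chromosome 6 whose products form the CD8 coreceptor of class I restricted T cells, had 25 and 21 UMIs in library 2, and 0 of either in library 1. Taking the 0 of library 1 as 3 UMIs, Cd8 RNA was 10.5-fold higher in library 2 (log2 ratio 3.39, lower bound of the interval 3.03). A UMI of either gene was found in 18 of 55 members of library 2 (32.7%, 20.7 to 46.7%), of which 8 had both. In library 1 it was 0 of 27 members (0 to 12.8%). At equal depth 18.0% of 50 members of library 2 (8.58 to 31.4%) and 0.00% of 27 of library 1 (0 to 12.8%) had a Cd8a UMI, and these intervals overlap. In Kupffer marker cells at equal depth, 1 of 3152 in library 2 and 0 of 1537 in library 1 had one. Before thinning it was 5 of 3767 in library 2 and 0 of 1662 in library 1. With cells limited to 10% mitochondrial UMIs, 21 and 8 members were left, too few to keep a bound above equality (log2 −0.36 for Cd8a, against 3 UMIs for the 0 of library 1).

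Cd4, which marks class II restricted helper T cells and some NKT cells, had 7 UMIs in 5 members of library 2 and 8 UMIs in 4 members of library 1, where 4 of the 8 UMIs lay in the cell with endothelial genes. No member had UMIs of both Cd4 and a Cd8 gene. Neither was found in 32 of 55 members of library 2 (58.2%) and in 23 of 27 of library 1 (85.2%). Among CD3-high cells these were 15 of 35 in library 2 (42.9%, 26.3 to 60.6%) and 20 of 24 in library 1 (83.3%, 62.6 to 95.3%).

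Of 9 coreceptor and costimulation genes compared, 3 were at least 2-fold higher in library 2 and 0 lower, with a median log2 ratio of 0.28. Without the granule gene cells 4 were higher and 0 lower, with a median of 0.52, and Cd5 was the one added (1.15, −0.61 to 3.26). The 3 with all members were Cd8a, Cd8b1 and the adhesion receptor gene Cd2, with 30 UMIs in library 2 and 10 in library 1 and a log2 ratio of 1.04 (−0.04 to 2.23). Cd28, the main costimulatory receptor, had 41 UMIs in 14 cells of library 2 and 23 UMIs in 14 cells of library 1. Thy1, a surface marker of T cells, had 73 UMIs in library 2 and 85 in library 1 and a log2 ratio of −0.77 (−1.24 to −0.30).

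**Figure D2:**
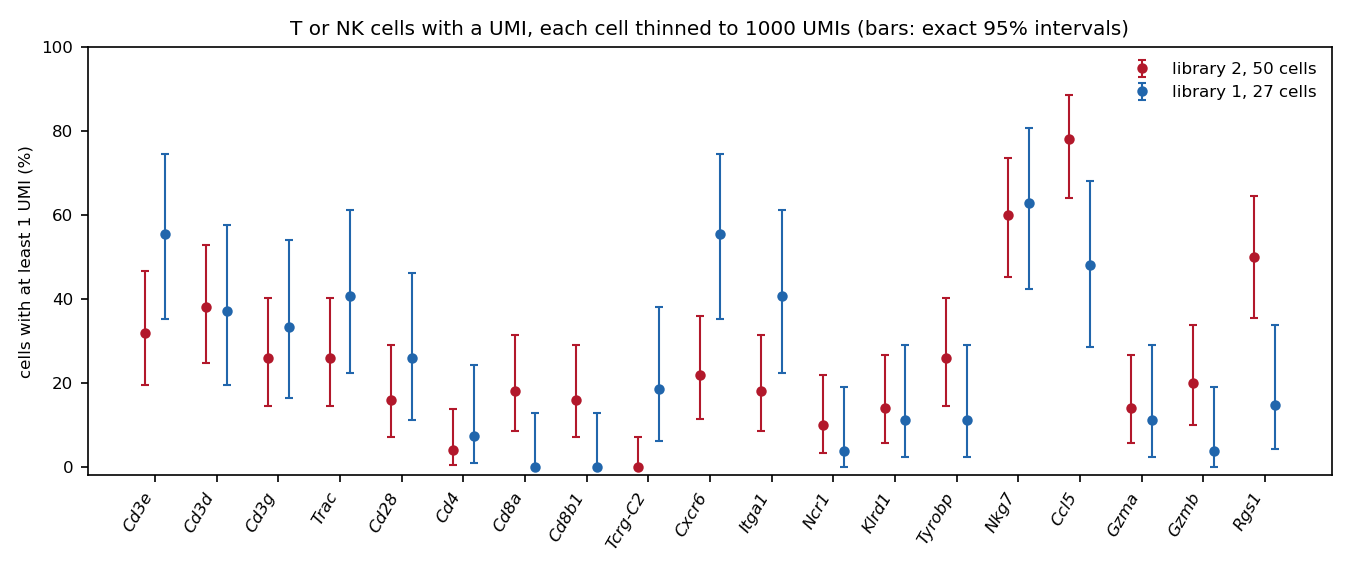
Share of members with at least 1 UMI of each gene (percent), after each cell was thinned to 1000 UMIs, for library 2 (left point of each pair, 50 cells, without the granule gene cells and 2 shallower cells) and library 1 (27 cells). Bars are exact 95% binomial intervals. Cd8a reached 18.0% and 0.00%, Cxcr6 22.0% and 55.6%, and Ccl5 78% and 48.1%, in library 2 and library 1.

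Of 12 signalling genes behind the receptor that were compared, 0 were higher and 1 was lower past 2-fold, with a median log2 ratio of −0.55. Without the granule gene cells 1 was higher (Sh2d1a, 1.15, −0.61 to 3.26) and 1 lower, with a median of −0.31. The lower one was Fyn, a kinase of the Src family, with 42 UMIs in 26 members of library 2 and 69 in 21 members of library 1 (log2 ratio −1.27, −1.85 to −0.69). Lck had 38 UMIs in library 2 and 39 in library 1, Zap70 had 22 UMIs in library 2 and 27 in library 1, and the adaptor Lat had 37 UMIs in library 2 and 44 in library 1.

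NK receptors and their adaptors showed no common direction. Of 13 genes compared, 1 was higher and 2 were lower, with a median of 0.09, or 0.33 without the granule gene cells. Klrk1, which encodes NKG2D, had 28 UMIs in library 2 and 29 in library 1, and Klrd1, which encodes CD94, had 29 UMIs in library 2 and 23 in library 1. The receptor gene Klre1 had 5 UMIs in library 2 and 14 in library 1 (log2 ratio −2.03, −3.86 to −0.48), and Klrb1f had 6 UMIs in library 2 and 18 in library 1 (−2.13, −3.76 to −0.74).

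Tyrobp, the adaptor also called DAP12, was the higher gene, with 90 UMIs in library 2 and 18 in library 1 (1.77, 1.03 to 2.59). At equal depth it was found in 26.0% of 50 members of library 2 and 11.1% of 27 of library 1, while 26.0% of B-lineage cells of library 2 and 17.5% of those of library 1 also had a UMI. Its level was 534 CPM in members and 1739 CPM in Kupffer marker cells of library 2, and 156 CPM in members and 1332 CPM in Kupffer marker cells of library 1. B-lineage cells had 260 CPM in library 2 and 251 CPM in library 1. Since the share over all members at equal depth did not exceed that in B-lineage cells of the same library, no difference between the libraries is read from it. The part of other cells' RNA in the difference in UMIs was not tested, and 9 of the 10 CD3-negative NK cells described below held a Tyrobp UMI.

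Cytotoxic genes were divided. Nkg7, a granule membrane protein and a gene of the rule, had 201 UMIs in 47 members of library 2 and 93 in 25 members of library 1 (log2 ratio 0.56, 0.20 to 0.93). Gzma, which encodes granzyme A and also belongs to the rule, had 116 UMIs in library 2 and 22 in library 1 (1.85, 1.18 to 2.58). These lay in 11 cells of library 2 and 3 of library 1, with up to 43 UMIs in a cell of library 2 and 16 in a cell of library 1, and 0 in most others. The ratio depends on which cells are members, and ranged over the other settings from 0.41, with at most 40% mitochondrial UMIs, to 4.83, with Gzma and Nkg7 left out of the rule.

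Gzmb had 25 UMIs in 12 cells of library 2 and 12 UMIs in 5 cells of library 1. Prf1, which encodes perforin, had 16 UMIs in 10 cells of library 2 and 3 in 2 cells of library 1 (1.87, 0.06 to 4.29). Of 11 genes of the list, 3 were higher (Gzma, Prf1 and the protease inhibitor gene Cst7) and 2 were lower (the death ligands Fasl, with 15 UMIs in library 2 and 23 in library 1, and Tnfsf10, with 7 UMIs in library 2 and 13 in library 1). The list's median log2 ratio was 0.51. Without the granule gene cells it was −0.05, with 3 genes higher and 1 lower. Srgn, the granule proteoglycan serglycin, was at −0.13 without them and 0.95 with them.

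Ccl5, a chemokine stored by memory and cytotoxic lymphocytes, had a log2 ratio between the libraries opposite in sign to those of Ltb and Cxcr6. It had 654 UMIs in 44 members of library 2, with a lowest of 0, a median of 7 and a highest of 106 per cell, and 191 UMIs in 20 members of library 1, with 0, 3 and 55. Both libraries held cells without it and cells with many UMIs. Its level was 3883 CPM in library 2 and 1659 CPM in library 1, a log2 ratio of 1.23 (0.99 to 1.47). At equal depth 39 of 50 members of library 2 (78%, 64.0 to 88.5%) and 13 of 27 of library 1 (48.1%, 28.7 to 68.1%) had a UMI, against 0.127% of Kupffer marker cells of library 2 and 0.520% of those of library 1, and 0 B-lineage cells (of 73 in library 2 and 40 in library 1).

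Of 6 cytokine and chemokine genes compared, Ccl5 was higher and 3 were lower in library 2, with a median log2 ratio of −1.06. Without the granule gene cells 1 was higher and 2 were lower, with a median of −0.82. Ltb, which encodes lymphotoxin beta, had 71 UMIs in library 2 and 111 in library 1 (log2 ratio −1.19, −1.64 to −0.75). At equal depth Ltb was found in 46.0% of 50 members of library 2 (31.8 to 60.7%) and 48.1% of 27 of library 1 (28.7 to 68.1%). No difference is read from these shares. Ifng, the gene of interferon gamma, had 4 UMIs in 4 cells of library 2 and 13 UMIs in 4 cells of library 1, of which 6 lay in the cell with endothelial genes. Ccl4 had 8 UMIs in library 2 and 13 in library 1, and without that cell and the granule gene cells 8 in library 2 and 2 in library 1 (1.51, −0.81 to 4.79), so its direction rests on that cell. Il4 had 1 UMI in library 2 and 9 in library 1, of which 8 lay in a single cell. Il2, Il10, Il17a, Il17f, Il21 and Il22 had 0 UMIs in every member. Of 9 cytokine receptor genes compared, 1 was lower and 0 were higher. This was Il2ra, the alpha chain of the interleukin 2 receptor, with 3 UMIs in library 2 and 15 in library 1 (−2.87, −5.30 to −1.05), while Il2rb had 90 UMIs in library 2 and 73 in library 1 and Il7r had 33 UMIs in library 2 and 22 in library 1.

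**Figure D3:**
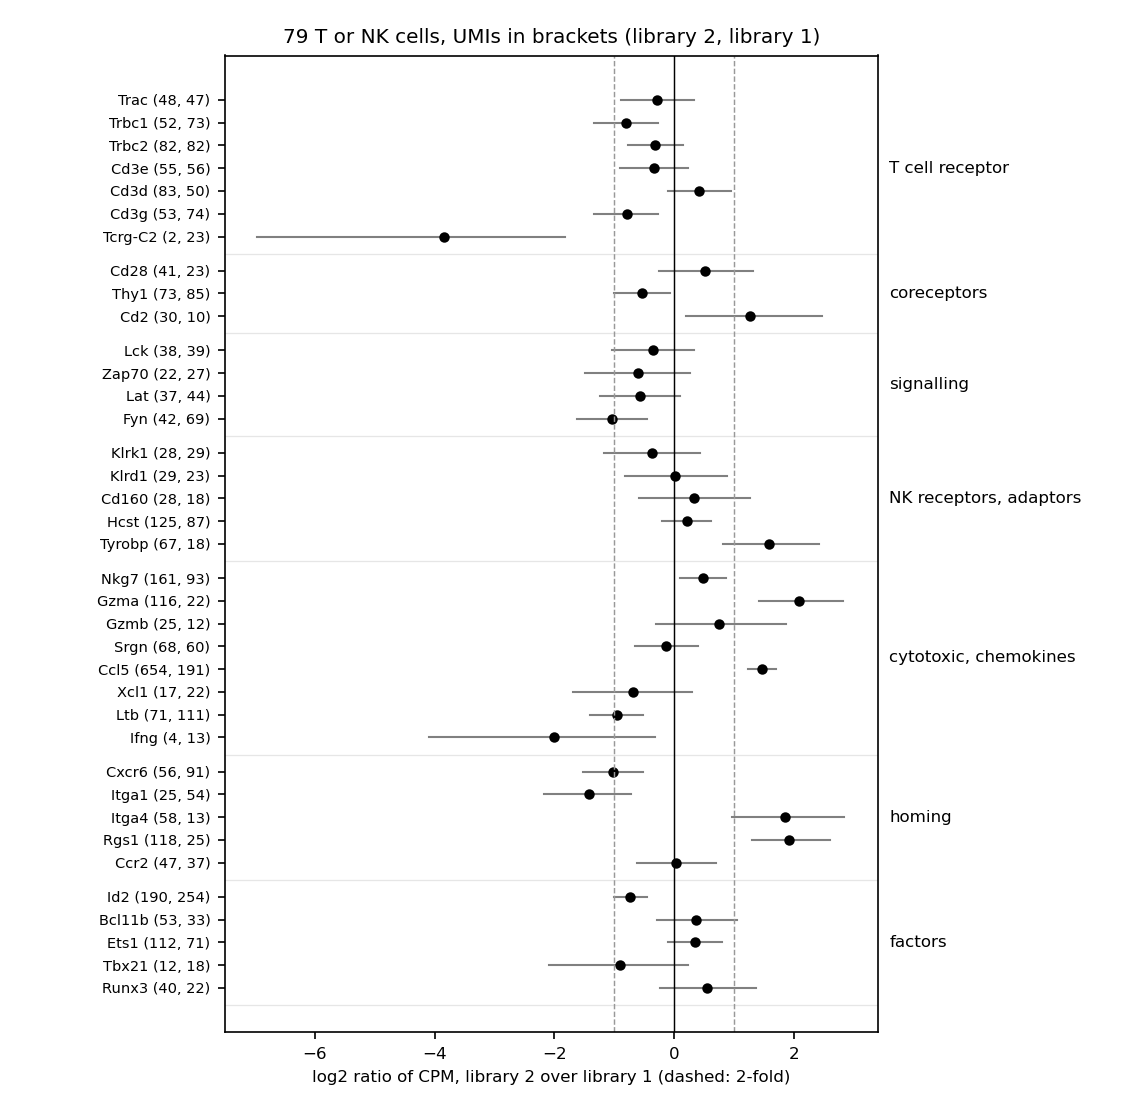
Log2 ratio of CPM, library 2 over library 1, for 37 genes in the 79 members without granule genes (points) with exact 95% intervals for counting error (lines), UMIs of library 2 and library 1 in brackets, and dashed lines at 2-fold. Ccl5, Gzma, Itga4 and Rgs1 lie to the right of 0, and Tcrg-C2, Itga1 and Cxcr6 to the left.

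Homing genes differed in both directions. Cxcr6 had 56 UMIs in 24 of 55 members of library 2 and 91 UMIs in 22 of 27 of library 1, with a median of 0 UMIs per cell and a highest of 7 in library 2, and a median of 4 and a highest of 9 in library 1. The log2 ratio was −1.25 (−1.76 to −0.75). At equal depth it was found in 22.0% of 50 members of library 2 (11.5 to 36.0%) and 55.6% of 27 of library 1 (35.3 to 74.5%), against 0.127% of Kupffer marker cells of library 2 and 0.0651% of those of library 1. Itga1, the collagen-binding integrin CD49a that marks resident lymphocytes, had 25 UMIs in 13 cells of library 2 and 54 UMIs in 17 cells of library 1 (−1.66, −2.41 to −0.95).

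Higher in library 2 were Itga4, an integrin subunit that binds Vcam1, with 60 UMIs in library 2 and 13 in library 1 (1.66, 0.78 to 2.65), and Rgs1, a regulator that dampens chemokine signalling, with 118 UMIs in library 2 and 25 in library 1 (1.69, 1.06 to 2.37). Both are shared with other cells of these libraries. At equal depth Itga4 was found in 24.0% of 50 members of library 2 (13.1 to 38.2%) and 14.8% of 27 of library 1 (4.19 to 33.7%). These intervals overlap. B-lineage cells had an Itga4 UMI in 23.3% of library 2 and 35.0% of library 1, so no difference between the libraries is read from the members' shares. Rgs1 was found at equal depth in 50.0% of 50 members of library 2 and 14.8% of 27 of library 1, in 13.7% of B-lineage cells of library 2 and 10.0% of those of library 1, and in 30.3% of Kupffer marker cells of library 2 and 30.1% of those of library 1. Of 13 homing genes compared, 4 were higher (these 2, Cxcr4 and Rgs2) and 3 lower (Cxcr6, Itga1 and the early activation marker Cd69, with 13 UMIs in library 2 and 18 in library 1). Without the granule gene cells 4 were higher and 2 lower, with Cd69 at −0.78. Cxcr4 then had 12 UMIs in library 2 and 4 in library 1 (1.27, −0.45 to 3.36), against 22 UMIs in library 2 with those cells. Ccr2 had 47 UMIs in library 2 and 37 in library 1, and Cd44 had 72 UMIs in library 2 and 46 in library 1.

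Of 13 transcription factor genes compared, 0 were higher and 2 lower past 2-fold (Tbx21, with 12 UMIs in library 2 and 18 in library 1, and Rora, with 10 UMIs in library 2 and 14 in library 1), and 0 of 13 were past it without the granule gene cells. Id2, which innate lymphocytes and effector T cells need, had 191 UMIs in library 2 and 254 in library 1 (log2 ratio −0.96, −1.24 to −0.68), and Bcl11b had 53 UMIs in library 2 and 33 in library 1. Zbtb16, which encodes the factor PLZF of NKT cells, had 2 UMIs in 2 cells of library 2 and 7 UMIs in 6 cells of library 1 (−2.36, −5.66 to 0.04). Foxp3 of regulatory T cells had 0 UMIs in all 82.

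Of 7 inhibitory receptor genes, 0 had enough UMIs to be compared alone. Pdcd1, Lag3 and Ctla4 had 5, 7 and 8 UMIs in library 2 and 0 in library 1, and were found in 9 of 55 members of library 2 and 0 of 27 of library 1. A single cell held 62.5% of the Ctla4 UMIs.

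The activation and state lists were of mixed direction. Of 8 heat shock genes, 2 were higher and 0 lower. The inducible Hspa1a and Hspa1b, near-identical neighbours, had 28 UMIs together in 14 cells of library 2 and 0 UMIs in library 1. Taking that 0 as 3 UMIs, they were 6.38-fold higher in library 2 (log2 ratio 2.67, lower bound 2.28). Other cells differed the same way, with a Hspa1b UMI in 22.1% of Kupffer marker cells of library 2 and 2.17% of those of library 1, and in 16.2% of B-lineage cells of library 2 and 0.00% of those of library 1. The part of this in the members' difference was not tested. Hsph1, a co-chaperone, had 44 UMIs in library 2 and 7 in library 1 (log2 ratio 2.10, 0.94 to 3.50). Of 9 interferon response genes, 0 were higher and 4 lower in library 2, with a median log2 ratio of −0.98, or 2 lower and −0.74 without the granule gene cells. Among the lower ones was the immunity-related GTPase gene Iigp1, with 2 UMIs in 2 cells of library 2 and 14 UMIs in 4 cells of library 1.

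Of 11 class I antigen presentation genes, 1 was higher and 3 were lower, with a median log2 ratio of −0.39, or 1 and 2 and −0.22 without the granule gene cells. H2-K1 had 395 UMIs in library 2 and 353 in library 1 (−0.39, −0.60 to −0.18). Of 7 immediate early genes, 0 were higher and 1 was lower, with a median of −0.65, or 1 and 2 and −0.50 without the granule gene cells. Egr1 was the lower one with all members, with 1 UMI in library 2 and 24 in library 1, of which 20 lay in 1 cell of library 1. Of 9 proliferation genes, 1 was higher and 2 were lower, with a median log2 ratio of −0.36, or 1 higher and 5 lower and −1.08 without the granule gene cells. Cycling cells, with at least 10 UMIs of Mki67 and Top2a, numbered 1 of 55 in library 2 and 2 of 27 in library 1.

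By the size of the ratio, the 10 highest genes in library 2 were S100a8, S100a9, Elane, Hmox1, Prtn3, Marco, Mpo, Cd63, Clec4n and Dcn. The granule gene cells held 99.8% of the S100a8 UMIs, 99.6% of those of S100a9 and 100% of those of Elane, Prtn3 and Mpo, and 71.0% of those of Cd63. Without them, the 10 were Hmox1, Marco, Clec4n, Dcn, Ccl6, Aldh2, Wls, Ndel1, Vcam1 and Klhl24. Of these, Hmox1, Marco, Clec4n, Ccl6 and Vcam1 had levels between 1039 and 12972 CPM in Kupffer marker cells of library 2. Dcn, a stellate cell and fibroblast gene, had 24 UMIs in library 2, of which 37.5% lay in 1 cell, and 1 in library 1.

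The 10 lowest were Egr1, the class II gene H2-Aa, Cxcl9, Cavin2, Clec4g, Aqp1, Tcrg-C2, the factor Batf, Tiprl and Trim12a. Cavin2, Clec4g and Aqp1 had 94.1%, 100% and 100% of their UMIs in the cell with endothelial genes, and Cxcl9 had 73.7%. Without it Cavin2, Clec4g and Aqp1 had at most 1 UMI in either library, and Cxcl9 had 1 UMI in library 2 and 5 in library 1 (−2.81, −8.37 to 0.35). Tcrg-C2, at −3.88 (−7.01 to −1.85), and Batf, with 1 UMI in library 2 and 8 left in library 1 (−3.49, −8.96 to −0.59), still had intervals below 0 without it and the granule gene cells.

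RNA of other cells was present in the members and moved with the library. Globin genes of red cells gave 0.722% of the members' UMIs in library 2 and 0.00434% in library 1. B-lineage cells had 3.23% in library 2 and 0.0164% in library 1, and Kupffer marker cells had 4.39% in library 2 and 0.0276% in library 1. Hbb-bs had 546 UMIs in 55 of 55 members of library 2 and 2 UMIs in 2 of 27 of library 1. Of 10 Kupffer genes, 7 of the 9 compared were at least 2-fold higher in members of library 2 and 0 lower, with a median log2 ratio of 1.72. Without the granule gene cells 8 of 9 were higher, with a median of 1.90. The sum of the 10 genes was 8133 CPM in library 2 and 1468 CPM in library 1. The rule itself limits Clec4f, Cd5l and C1qa, whose share in members had a median of 0.296% in library 2 and 0.0598% in library 1.

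The members' levels of Marco, Hmox1 and H2-Aa differed between the libraries in the same direction as those of Kupffer marker cells. Those of Clec4f, C1qa, C1qc and Vsig4 did not, being higher in members but lower in Kupffer marker cells of library 2. C1qa had 1051 CPM in members and 4449 CPM in Kupffer marker cells of library 2, and 434 CPM in members and 5316 CPM in Kupffer marker cells of library 1. Marco, a scavenger receptor, had 2559 CPM in members and 12972 CPM in Kupffer marker cells of library 2, and 52.1 CPM in members and 487 CPM in Kupffer marker cells of library 1. Hmox1, the heme-degrading enzyme heme oxygenase 1, had 1644 CPM in members and 8120 CPM in Kupffer marker cells of library 2, and 17.4 CPM in members and 998 CPM in Kupffer marker cells of library 1. Class II genes went the other way, with 5.94 CPM of H2-Aa in members and 111 CPM in Kupffer marker cells of library 2, and 191 CPM in members and 2820 CPM in Kupffer marker cells of library 1. In members of library 2 Marco, Hmox1, Cd5l and C1qa stood at 19.7%, 20.3%, 18.2% and 23.6% of the Kupffer level, and in those of library 1 at 10.7%, 1.74%, 5.52% and 8.17%. The other genes of the Kupffer list stood lower in library 2. Clec4f, C1qc, Vsig4 and Adgre1 stood at 11.8%, 14.4%, 14.8% and 14.1% in library 2 and 3.94%, 6.86%, 3.64% and 6.82% in library 1. C1qb stood at 8.93% in library 2 and 2.97% in library 1, and Timd4 at 9.62% in library 2 and 9.51% in library 1.

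The 5 dendritic markers compared were all lower in library 2, with a median log2 ratio of −2.37. They include Irf8, with 17 UMIs in members of library 2 and 60 in those of library 1, of which 26 lay in the cell with endothelial genes, and Cd74, with 10 UMIs in members of library 2 and 47 in those of library 1. Of 10 hepatocyte genes, 4 were higher and 0 lower in library 2, with a median log2 ratio of 0.68, and 4 of 4 globin genes were higher, with a median of 6.45. Of 7 monocyte and neutrophil markers, 6 were higher, but 1 of the 3 compared without the granule gene cells, with medians of 5.21 and 0.34. Of the 2 endothelial and stellate markers compared, 1 was higher and 1 lower, and the 1 B and plasma marker compared was at 0.32. No basophil, mast cell or platelet marker had enough UMIs to compare. The part of this RNA in the differences between libraries was not tested. Cd8a, Cxcr6 and Ccl5 were found at equal depth in 0.520% or less of Kupffer marker cells, and in 0 B-lineage cells of both libraries.

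**Figure D4:**
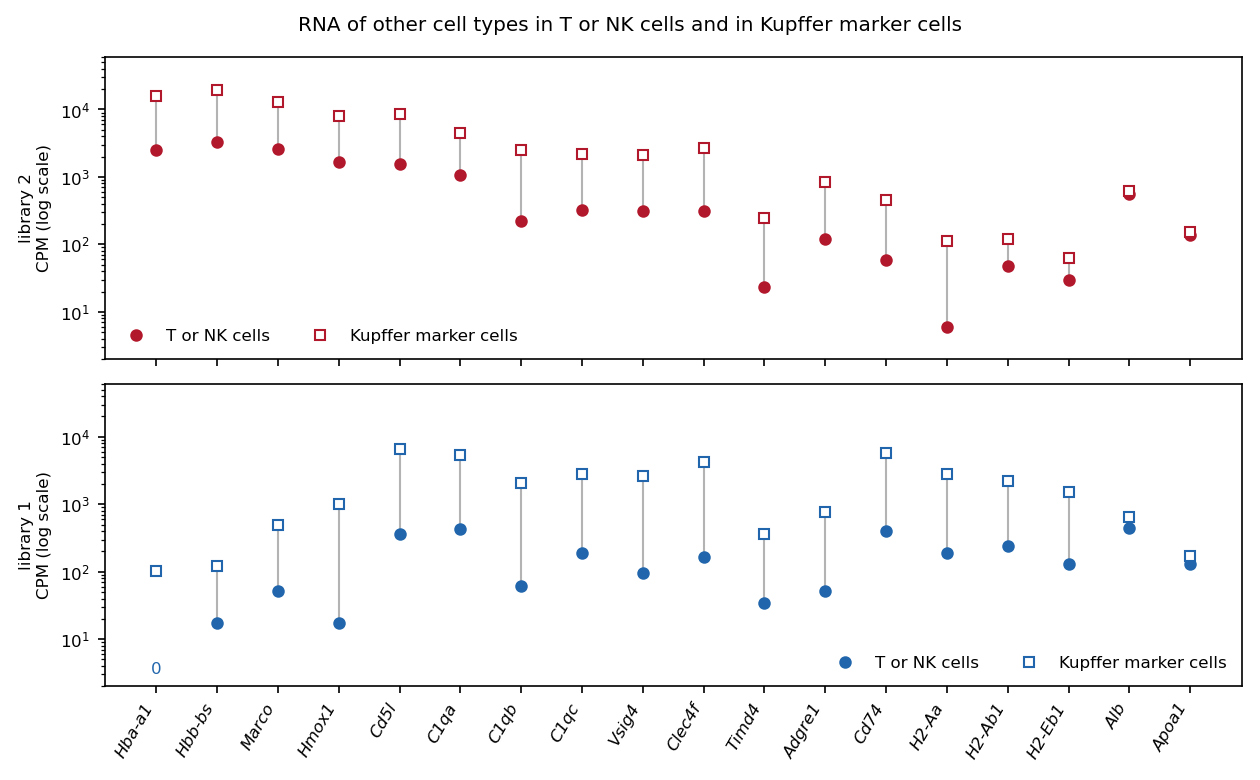
Level (CPM, log scale) of genes of red cells, macrophages, antigen-presenting cells and hepatocytes in members (filled circles) and in Kupffer marker cells (open squares), with library 2 above library 1, and 0 written where a gene had no UMI. Hbb-bs, Marco and Hmox1 reach 3241, 2559 and 1644 CPM in members of library 2 and 17.4, 52.1 and 17.4 CPM in those of library 1.

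Among the members, CD3-negative NK cells (10 cells, both libraries together) were set beside CD3-high cells (59 cells). Library 2 gave 7 of the first and 35 of the second, so the mix of libraries differs between the groups. Of 3495 genes compared, 7.24% were at least 2-fold higher and 13.0% at least 2-fold lower in the CD3-negative cells. Ncr1, which helped to define them, had 24 UMIs in 8 of 10 CD3-negative NK cells and 0 in 59 CD3-high cells. Klrd1 had 36 UMIs in 9 of 10 CD3-negative cells and 10 UMIs in 9 of 59 CD3-high cells, a log2 ratio of 4.51 (3.47 to 5.68). Its inhibitory partner Klrc1 had 17 UMIs in CD3-negative cells and 9 in CD3-high cells (3.58, 2.33 to 4.93). The adaptors Tyrobp and Fcer1g had 47 UMIs in CD3-negative cells and 27 in CD3-high cells (3.46, 2.75 to 4.20) and 62 UMIs in CD3-negative cells and 44 in CD3-high cells (3.15, 2.57 to 3.75).

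Klra4, a receptor of the Ly49 family, had 11 UMIs in 3 of 10 CD3-negative cells and 0 in the CD3-high cells, and Spp1 had 11 UMIs, all in 1 cell. Klrk1 had 21 UMIs in CD3-negative cells and 30 in CD3-high cells (2.15, 1.27 to 3.0). Prf1 had 10 UMIs in CD3-negative cells and 9 in CD3-high cells (2.81, 1.36 to 4.29). The NK factor Eomes, a gene of the split, had 6 UMIs in CD3-negative cells and 5 in CD3-high cells.

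Lower in the CD3-negative NK cells, besides the CD3 genes that define the split and the rule gene Trbc2, with 3 UMIs in 1 CD3-negative cell and 148 in CD3-high cells, were Ifi27l2a, with 1 UMI in CD3-negative cells and 96 in CD3-high cells (log2 ratio −3.92, −9.24 to −1.41), and Cd28, with 1 UMI in CD3-negative cells and 55 in CD3-high cells (−3.12, −8.45 to −0.58). Rapgef6 had 1 UMI in CD3-negative cells and 40 in CD3-high cells, and Utrn had 1 in CD3-negative cells and 38 in CD3-high cells. Trac had 0 UMIs in 10 CD3-negative cells and 89 in 46 of 59 CD3-high cells, Bcl11b had 0 UMIs in CD3-negative cells and 81 in CD3-high cells, and Lat had 0 UMIs in CD3-negative cells and 79 in CD3-high cells. Cxcr6 had 5 UMIs in CD3-negative cells and 139 in CD3-high cells (−2.14, −3.78 to −0.88), Ltb had 8 UMIs in CD3-negative cells and 164 in CD3-high cells (−1.70, −2.93 to −0.69), and Thy1 had 6 UMIs in CD3-negative cells and 141 in CD3-high cells (−1.89, −3.37 to −0.74).

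The near-identical Trbc1 and Trbc2 gave unlike ratios across the split. Trbc1 was found in 7 of 10 CD3-negative NK cells and in 27 of 59 CD3-high cells. It had 14 UMIs in CD3-negative cells and 107 in CD3-high cells (−0.27, −1.19 to 0.54). Trbc2 had 3 UMIs in CD3-negative cells and 148 in CD3-high cells (−2.96, −5.26 to −1.39). Since their counts one by one are uncertain, nothing on beta chain RNA is read from either gene alone. Id2 and Il2rb, like Trbc1, had intervals that span equality. Id2 had 2066 CPM in CD3-negative cells and 1732 CPM in CD3-high cells, and Il2rb had 833 CPM in CD3-negative cells and 605 CPM in CD3-high cells. Gzma and Nkg7 are not compared across the split, since a cell without CD3 UMIs can enter the rule through them. In library 1 all 22 Gzma UMIs lay in the 3 CD3-negative NK cells, with 3, 3 and 16, while in library 2 the CD3-high cells held 104 of 116.

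In library 2, CD3-high cells with a Cd8 UMI (16 cells, median 2389 UMIs) were set beside those without (19 cells, median 2810 UMIs). A cell without a Cd8 UMI may still carry CD8 at this depth. Ccl5 had 384 UMIs in 14 of 16 Cd8-bearing cells and 147 UMIs in 15 of 19 others, a log2 ratio of 1.81 (1.53 to 2.09), and 27.6% of the first count lay in 1 cell. The rule gene Nkg7 had 73 UMIs in Cd8-bearing cells and 44 in the others (1.15, 0.60 to 1.73). Gzmk, a granzyme of memory CD8 T cells, had 8 UMIs in 4 Cd8-bearing cells and 0 in the others. With that 0 taken at the limit for such counts, Gzmk was 3.58-fold higher in Cd8-bearing cells (log2 ratio 1.84, lower bound 1.20).

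Gzma, also of the rule, had 78 UMIs in Cd8-bearing cells and 26 in the others (2.01, 1.35 to 2.71), with 55.1% of the first count in 1 cell. Lower in Cd8-bearing cells were Cd28, with 3 UMIs in Cd8-bearing cells and 29 in the others (−2.85, −5.21 to −1.16), Ltb, with 14 UMIs in Cd8-bearing cells and 43 in the others (−1.19, −2.18 to −0.30), Id2, with 41 UMIs in Cd8-bearing cells and 97 in the others (−0.82, −1.38 to −0.28), and Klrk1, with 1 UMI in Cd8-bearing cells and 10 in the others (−2.90, −8.34 to −0.08). Cxcr6, with 16 UMIs in Cd8-bearing cells and 33 in the others (−0.62, −1.58 to 0.28), Rgs1, with 39 UMIs in Cd8-bearing cells and 42 in the others, and Itga4, with 19 UMIs in Cd8-bearing cells and 27 in the others, had intervals that span equality.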

How the data were processed

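Single-cell libraries of bead-enriched liver cells were made with a 3′ droplet kit, per the labels. The deposited values are raw UMI counts per gene and barcode, 26078 genes by 18633 barcodes, for which the submitters' processing notes list Cell Ranger 3.0.1, the build GRCm38.p5 and R 3.6.1. The gene annotation release, any evening out of depth and the barcode filters are not given in the sources used. The 2 libraries come from the barcode suffixes, which no label ties to a mouse.

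Values were computed in Python 3.11.15 with pandas 2.3.3, scipy 1.17.1 and numpy 2.4.6, and drawn with matplotlib 3.10.9. Members were found by the rule given above, and their UMIs were summed per library and given as CPM. Kupffer marker cells and B-lineage cells are kept cells that are not members, grouped by their marker genes. Kupffer marker cells held at least 1% of UMIs from Clec4f, Cd5l and C1qa, so that limit in part sets their levels of these genes. Shares have exact Clopper-Pearson intervals and ratios have conditional exact intervals, at 95%, and all cover counting error only. With 1 sample per genotype no p-value was computed. A count of 0 was taken as at most 3 UMIs per library. Genes were compared at 10 or more UMIs in either group, with 2-fold as the limit of size. Thinning drew 1000 UMIs per cell with a fixed seed, leaving out 2 members of library 2 and 0 of library 1 that are shallower. The interval and the calls were tested on data simulated with counting error alone. That check cannot show how they behave where UMIs gather in single cells.

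Named genes are the 10 highest and 10 lowest ratios between libraries (interval excluding equality, without globins, mitochondrial and numbered predicted genes), the 15 highest folds over other cells, the 8 highest folds each way across the CD3 split, and genes of 24 lists. The members and the lists were chosen with earlier results of these data known. Gene positions are from GENCODE M21. Doublets were not called. Near-identical or related genes (Trbc1 and Trbc2, the Tcrg-C, Klra, alpha globin and Hspa1 genes) are treated as uncertain one by one. The alternatives tried were other limits of the rule, other depth and scaling choices, and, chosen after seeing the data, leaving out the granule gene cells and the cell with endothelial genes.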

Additional observations from a re-analysis of the deposited data

How the results depend on the processing

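No paired analysis was possible because each genotype has 1 sample and no test was made. Of the shares, counts and list medians set beside their values under other settings, 396 moved by less than counting error or 1.5 times, 41 moved by more and 1 past 2-fold changed sign. Of such comparisons of a single gene, 433 stayed within it, 24 moved and 4 past 2-fold changed sign. Values under 2-fold also crossed 0, 23 times among list medians and 4 times among single genes. Among the medians was that of cytotoxic genes (−0.05 without the granule gene cells). The genes were Srgn (−0.13 without those cells), Cd3d (−0.17 with at most 10% mitochondrial UMIs), Gzmb (−0.0071 with at most 40%) and Fcer1g (−0.38 with Gzma and Nkg7 left out of the rule). The 4 past 2-fold came with at most 10% mitochondrial UMIs, which left 21 and 8 members. Cd8a was at −0.36, Cd8b1 at −0.58, Hspa1b at −0.17 and Prf1 at −0.17 on the log2 scale. For Cd8a, Cd8b1 and Hspa1b library 1 had 0 UMIs, taken as 3, so these are bounds set by fewer cells. The cytokine median changed sign to 0.15 under this limit. Others under it were coreceptors −0.45, cytokine receptors −1.04, interferon response −1.72, globin 3.89, dendritic −3.97 and monocyte and neutrophil 4.17. It left 89 genes at least 2-fold lower in library 2 and 0% of its members with a Tcrg-C gene. With at most 40% mitochondrial UMIs, the share of library 1 was 0.553% (33 cells), the globin median 7.21 and the endothelial and stellate median −0.97.

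Leaving Gzma and Nkg7 out of the rule gave 37 members and a share of 0.536% in library 2, of which 89.2% were CD3-high and 5.41% other. It gave 200 genes lower and medians of 0.92 for coreceptors, 0.43 for proliferation and 0.28 for monocyte and neutrophil markers. Without the granule gene cells the last 2 were −1.08 and 0.34. Without these and the cell with endothelial genes, monocyte and neutrophil markers were at 0.16 and cytokines at −0.023. Keeping shared barcodes gave a globin median of 3.11, and dropping the macrophage limit gave 7.79, with Kupffer RNA at 2.30. A macrophage limit of 0.5% put dendritic markers at −3.13. Weighting each cell equally gave −0.27 for cytokines, −0.28 for interferon response, 1.37 for hepatocyte RNA and 3.75 for monocyte and neutrophil markers. From 5 UMIs a gene, 797 genes were higher and 925 lower, and from 20 UMIs 157 and 80. Taking 1 CD3 UMI as CD3-high gave 80.0% CD3-high and 7.27% other in library 2. Thinning gave 34.0% CD3-high and 54.7% other in library 2, and 40.7%, 44.4% and 29.6% with a Tcrg-C gene in library 1. Apart from the bounds named above, the causes were not tested. With 55 and 27 cells, the intervals of genes with few UMIs are wide.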
